A study of Homo sapiens with 16 samples.

Results

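MYC, its partner MAX and the 5 genes MXD1, MXD3, MXD4, MXI1 and MNT form a small network of transcription factors, and their transcripts were followed over 45 h of HER2 inhibition in the breast cancer line SUM-225. SUM-225 cells carry an amplified and over expressed HER2 gene, and CP724,714 is a small molecule inhibitor of the HER2 kinase. Each array held RNA of 1 culture, grown per the labels in Ham's F-12 medium with fetal bovine serum, insulin and hydrocortisone and given 1 µM CP724,714 for 0, 3, 6 or further steps of 3 h up to 45 h. The study's methods instead name a serum-free medium lacking insulin for this line, and which was used here is unsettled. The 16 arrays thus stand for 16 time points, all of a single cell line and none with a replicate, and the 0 h array is the only culture without time in the inhibitor. Effects of time in culture, or of handling when the inhibitor was added, cannot be told apart from those of the inhibitor, since no untreated cultures over time are analysed here.

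All probes whose gene symbol is one of the 7 members were taken, which gave 14 of 24526 probes and 7 of 18631 gene symbols. The genes were chosen by symbol, as members of the MYC network, after their courses on these arrays were known. Their values are therefore given as a description with no test, and support nothing beyond it. Of the 14 probes, 12 had a detection p-value under 0.05 on at least 3 arrays and entered the fit across all 16110 probes that passed this filter. A MAX probe (ILMN_1695633) and an MXI1 probe (ILMN_1663497) passed on 0 of 16 arrays and are not described further.

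MYC is a basic helix-loop-helix leucine zipper protein that binds DNA only as a dimer with MAX, at the sequence called the E-box, and activates genes of ribosome building, nucleotide and polyamine synthesis and the cell cycle. The MXD proteins, MXI1 and MNT also dimerise with MAX and occupy the same E-boxes, but bring the SIN3 corepressor and its histone deacetylases in place of MYC's coactivators. In many tissues MYC is high in dividing cells, MXD1, MXD4 and MXI1 are high in resting or differentiating cells, MXD3 is found in S phase and MNT is present in both. MYC mRNA and protein are short lived, and growth factor receptors such as HER2 are known to raise MYC through the RAS and PI3K pathways.

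Reference promoters of 3 members are shown here because 2 of them hold the E-box that the network's own dimers bind, and 1 holds a forkhead motif, the site of the FOXO factors, which AKT kinase is known to keep out of the nucleus. The sequences are from RefSeq (GRCh38.p14) and end at the base before the annotated start. They are MXD4 on the minus strand at chr4:2262110-2262359, MNT on the minus strand at chr17:2401061-2401310 and MXI1 on the plus strand at chr10:110209981-110210230, which lies before the second of 3 annotated MXI1 starts. Capitals mark the E-box CACGTG, which begins at position -238 for MXD4 and -193 for MNT counted from the start, and the forkhead motif GTAAACA, read on the opposite strand, which begins at -151 for MXI1.
MXD4: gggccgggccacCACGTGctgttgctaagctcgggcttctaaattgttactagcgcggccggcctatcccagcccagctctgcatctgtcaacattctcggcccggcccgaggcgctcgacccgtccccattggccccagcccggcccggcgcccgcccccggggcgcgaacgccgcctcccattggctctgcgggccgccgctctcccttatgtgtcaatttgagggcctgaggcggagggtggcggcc
MNT: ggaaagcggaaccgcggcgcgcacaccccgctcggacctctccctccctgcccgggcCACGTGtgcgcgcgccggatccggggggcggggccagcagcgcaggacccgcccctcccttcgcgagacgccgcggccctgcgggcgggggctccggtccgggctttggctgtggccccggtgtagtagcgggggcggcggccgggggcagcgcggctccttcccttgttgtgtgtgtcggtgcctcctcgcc
MXI1: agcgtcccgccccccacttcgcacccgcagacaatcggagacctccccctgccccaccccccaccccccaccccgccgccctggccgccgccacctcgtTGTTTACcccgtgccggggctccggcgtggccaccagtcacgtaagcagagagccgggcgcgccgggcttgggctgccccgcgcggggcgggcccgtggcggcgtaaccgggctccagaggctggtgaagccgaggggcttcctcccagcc
Both motifs were searched on both strands in 9 windows of 300 bases belonging to the 6 members other than MYC. The E-box was in 2 of the 9 windows, against 7.26% of 35116 RefSeq windows of that length. The forkhead motif was in 2, both of MXI1, against 3.42% of all windows. No E-box overlapped a forkhead motif. A match describes the letters in the window and not a bound site, and no binding was measured.

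Median signal intensity ran from 242 to 384 and between 14110 and 15073 probes were detected. The epithelial and HER2 markers ERBB2, KRT8, KRT18, KRT19, EPCAM and CDH1 were detected on all 16 arrays. Of 7 markers of other cell types, PTPRC and VIM were detected on 0 arrays, CD3E on 1, COL1A1 and COL1A2 on 5 each, and PECAM1 and CD68 on 16. In the limma fit described below, KRT8 fell by 0.68 ± 0.10 (SE, adjusted p = 2.14e-05), KRT18 fell by 0.74 ± 0.10 (adjusted p = 7.73e-06) and CD68 rose by 0.38 ± 0.14 (adjusted p = 0.0341), so these moved alongside the gene lists given later. With the 12 h set as a factor their adjusted p-values were 0.271, 0.424 and 0.248. The part of these markers in the results was not tested. Sets of 12 h (0 to 9, 12 to 21, 24 to 33 and 36 to 45 h) were taken from earlier results of these data, and the labels name no batch. The root mean square step over all tested probes was 0.42, 0.36 and 0.33 at the 3 borders of these sets. Inside sets it was 0.35, 0.40 and 0.36 from 0 to 9 h and 0.42 from 42 to 45 h. Between 12 and 42 h the steps inside sets ran from 0.26 to 0.30. The borders at 21 to 24 h and 33 to 36 h were thus the largest steps in that stretch. Differences across the borders of these sets, such as that from 9 to 12 h, are given with this in view, since set and time cannot be told apart there. All levels below are log2 values after background correction and quantile normalization, and a level of one probe is not compared with that of another.

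**Figure D1:**
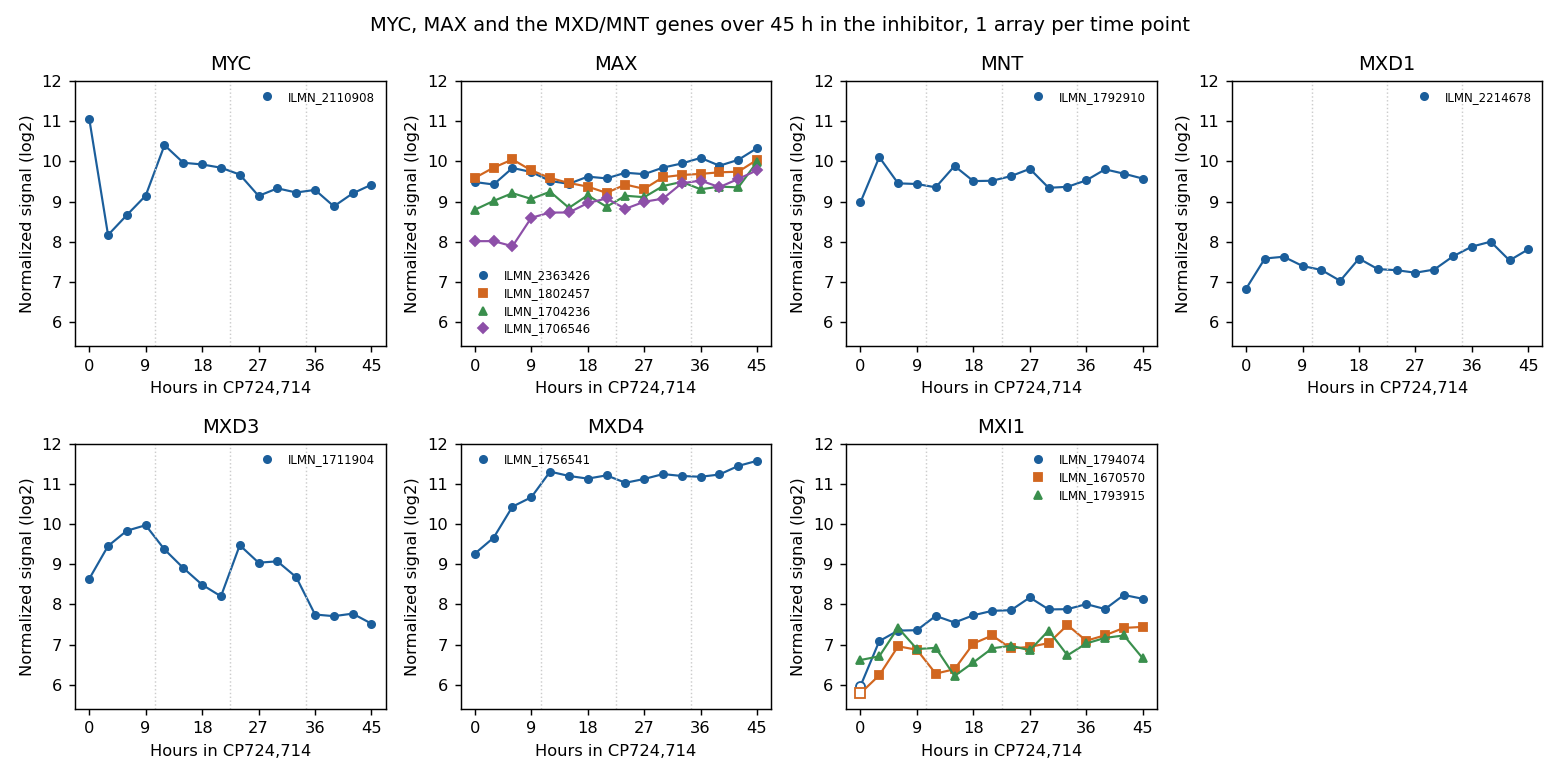
Normalized log2 signal (vertical axis) of the 12 tested probes of the 7 genes against hours in CP724,714 (horizontal axis), 1 array per point. Dotted lines are the borders of the 12 h sets and open symbols are values not detected. MYC was 11.06 at 0 h, 8.17 at 3 h and 10.40 at 12 h, MXD4 went from 9.26 at 0 h to 11.31 at 12 h, and MXD3 had steps at 21 to 24 h and 33 to 36 h.

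MYC transcript was lowest at the first time point in the inhibitor. Its single probe (ILMN_2110908) read 11.06, 8.17, 8.66 and 9.15 from 0 to 9 h. It then read 10.40, 9.97, 9.92 and 9.84 from 12 to 21 h, 9.67, 9.14, 9.33 and 9.22 from 24 to 33 h, and 9.29, 8.88, 9.20 and 9.42 from 36 to 45 h. The course was a trough, a partial return and a plateau, with no array after 0 h as high as the 0 h array.

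In the deposited signal the MYC probe was at 2198 at 0 h and 369 at 3 h, which is 5.96-fold. After normalization the 3 h array differed from the 0 h array by -2.90 log2 units (7.45-fold), and only 4 of the 16110 tested probes had a more negative difference between these arrays. Without background correction the same difference was -2.33, and subtracting background widens folds by its construction. No array repeats 0 h or 3 h, so the size of this step has no error of its own. The residual SD of the MYC probe about its fitted cubic course was 0.75, against a median of 0.19 over all tested probes, so a smooth course described MYC poorly.

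The return came in the second set of arrays. From 12 to 21 h the MYC mean was 10.03 ± 0.25 (SD of 4 time points), against 8.66 ± 0.49 (3 time points) from 3 to 9 h, a difference of 1.37 (2.59-fold) with no overlap. It was the 29th highest of the 16110 differences in this comparison. The step from 9 to 12 h was 1.26 and coincides with a border of the sets. Before that border, on arrays of the same set, the steps from 3 to 6 h and from 6 to 9 h were 0.50 and 0.48.

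Later MYC was lower again and nearly level. The 24 to 33 h mean was 9.34 ± 0.23, which differed by -0.69 from that of 12 to 21 h with no overlap, and the 36 to 45 h mean was 9.20 ± 0.23. Ordered by level, the arrays ran from 0 h over 12 h and then 15, 18, 21 and 24 h down to 39, 6 and 3 h. The SD within the 3 later sets was 0.24 when pooled, and the gaps between neighbours from 15 h down to 24 h were smaller than this, as were those from 45 h (9.42) down to 27 h (9.14). The 0 h, 12 h and 3 h arrays stood apart from their neighbours by 0.44 or more. A straight-line summary said little of such a course. The fitted linear change over 45 h was -0.47 ± 0.49 (SE), and it was 0.11 without the 0 h array.

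MAX, the shared partner of all these proteins, was read by 4 probes that did not follow one course. The widest range was that of ILMN_1706546, which read 8.01, 8.01, 7.89 and 8.60 from 0 to 9 h, 8.72, 8.73, 8.96 and 9.08 from 12 to 21 h, 8.82, 8.99, 9.07 and 9.45 from 24 to 33 h, and 9.52, 9.36, 9.56 and 9.78 from 36 to 45 h. Its linear change was 1.72 ± 0.15 (SE) and its first 3 arrays lay below all others.

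The other MAX probes had smaller ranges. ILMN_2363426 lay between 9.42 at 3 h and 10.33 at 45 h, with a linear change of 0.66 ± 0.12, and ILMN_1704236 between 8.80 at 0 h and 9.99 at 45 h, with 0.68 ± 0.15. The fourth, ILMN_1802457, went from 9.59 at 0 h to 10.05 at 6 h, then down to 9.21 at 21 h and back to 10.04 at 45 h, and its linear change was 0.05 ± 0.14. That probe was higher where the array was dimmer, with a Pearson r of -0.80 over the 16 arrays between its level and the array's median signal, whereas ILMN_1706546 had an r of 0.22. Whether array brightness had a part in it was not tested. Probes of a gene can read different transcripts, and which MAX transcripts these 4 read is not given in the sources used here. Of the 4 probes, 3 were highest at 45 h, the array with the widest step from its neighbour. Without that array the linear change was 0.55 for ILMN_2363426, 0.49 for ILMN_1704236 and -0.11 for ILMN_1802457. At 3 h, where MYC was lowest, the 4 MAX probes differed from 0 h by between -0.06 and 0.26.

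MXD4, an antagonist known from cells that leave the cycle, was higher on every array in the inhibitor than at 0 h. The probe ILMN_1756541 read 9.26, 9.66, 10.43 and 10.67 from 0 to 9 h. It read 11.31, 11.20, 11.13 and 11.21 from 12 to 21 h, 11.03, 11.12, 11.24 and 11.20 from 24 to 33 h, and 11.18, 11.23, 11.45 and 11.58 from 36 to 45 h. Each array up to 12 h was above the one before it, and all arrays from 12 h on were above all earlier ones.

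The MXD4 range was 2.31 log2 units (4.97-fold), and the deposited signal ran from 733 at 0 h to 3693 at 27 h. Its linear change was 1.56 ± 0.11 (SE), and the residual SD was 0.14. Most of the difference was in place by 12 h. The 12 to 21 h mean was 11.21 ± 0.07 (SD of 4 time points) against 10.25 ± 0.53 (3 time points) from 3 to 9 h, a difference of 0.96, and the later sets differed from those before them by -0.06 and 0.21. Inside the first set alone, where no border intervenes, the 9 h array was 1.40 above the 0 h array.

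MXI1, a further SIN3-binding antagonist, was read by 3 tested probes of low signal. ILMN_1794074 was not detected at 0 h (detection p-value 0.0628, level 5.96), and read 7.08, 7.35 and 7.36 from 3 to 9 h. From 12 to 45 h it lay between 7.55 at 15 h and 8.23 at 42 h. Its 0 h array was the lowest of all, by more than a log2 unit.

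Because the 0 h value was not above background, folds against it are lower bounds. They were computed against the lowest level among detected probes of that array (6.05), which gave at least 2.05-fold higher at 3 h and at least 4.27-fold higher at 45 h. ILMN_1670570 was likewise not detected at 0 h (p-value 0.113, level 5.79). It was 6.24 at 3 h, between 6.28 and 7.23 from 12 to 21 h, and 7.44 at 45 h, at least 2.63-fold higher than at 0 h. The third probe, ILMN_1793915, was detected on all 16 arrays and lay between 6.22 at 15 h and 7.42 at 6 h. The linear changes of the 3 probes were 1.40 ± 0.17, 1.24 ± 0.23 and 0.25 ± 0.25 (SE). At this signal the background step carried much of the size, and without it the first 2 of these changes were 0.69 and 0.49, and the 3 h difference of ILMN_1794074, taken from a 0 h value not above background, was 0.41 in place of 1.12.

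MXD1, the founding member of the antagonist family, had a narrower range. Its probe ILMN_2214678 read 6.83, 7.58, 7.63 and 7.39 from 0 to 9 h, 7.30, 7.03, 7.58 and 7.32 from 12 to 21 h, 7.29, 7.23, 7.31 and 7.64 from 24 to 33 h, and 7.88, 8.0, 7.53 and 7.81 from 36 to 45 h. The 0 h array was the lowest and the 3 h array was 0.75 above it, or 0.35 without background correction. The last set overlapped the one before it, with means of 7.81 ± 0.20 and 7.36 ± 0.18 (SD, 4 time points each). Its linear change was 0.56 ± 0.21 (SE), and 0.28 without background correction.

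MXD3, the member tied to S phase, ran a different way from the other MXD genes. The probe ILMN_1711904 read 8.64, 9.45, 9.83 and 9.97 from 0 to 9 h, and 9.37, 8.91, 8.49 and 8.20 from 12 to 21 h. It then read 9.47, 9.04, 9.07 and 8.68 from 24 to 33 h, and 7.75, 7.71, 7.77 and 7.52 from 36 to 45 h. It was highest at 9 h and lowest at 45 h, 5.47-fold apart, and the deposited signal at those times was 1138 and 311.

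The largest single steps of MXD3 fell on borders of the 12 h sets. They were 1.27 from 21 to 24 h and -0.93 from 33 to 36 h, which were the 55th highest and the 197th lowest of all tested probes. Inside the sets, last array minus first, the level differed by 1.34 from 0 to 9 h and by -1.17, -0.80 and -0.23 in the later 3 sets. The last set lay below the one before it without overlap, at 7.69 ± 0.11 against 9.06 ± 0.33 (SD, 4 time points each), and the difference of -1.38 was -0.91 without background correction. The linear change over all arrays was -1.83 ± 0.35 (SE). With the 12 h set as a factor it was -0.94 ± 1.21, which leaves its direction within sets unresolved.

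MNT, the antagonist that is present in both dividing and resting cells, was highest where MYC was lowest. ILMN_1792910 read 8.98, 10.11, 9.45 and 9.44 from 0 to 9 h, 9.35, 9.88, 9.51 and 9.52 from 12 to 21 h, 9.63, 9.81, 9.34 and 9.37 from 24 to 33 h, and 9.53, 9.80, 9.69 and 9.57 from 36 to 45 h. The 3 h array was 1.13 above 0 h (2.18-fold) and was the 67th highest difference of all tested probes. Without background correction the difference was 0.91, which is under 2-fold. The step from 3 to 6 h was -0.65, and from 6 to 45 h it stayed between 9.34 and 9.88. Over the whole course the linear change was 0.14 ± 0.20 (SE). The 3 h value rests on 1 array, with a deposited signal of 978 against 633 at 0 h and 622 at 6 h.

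**Figure D2:**
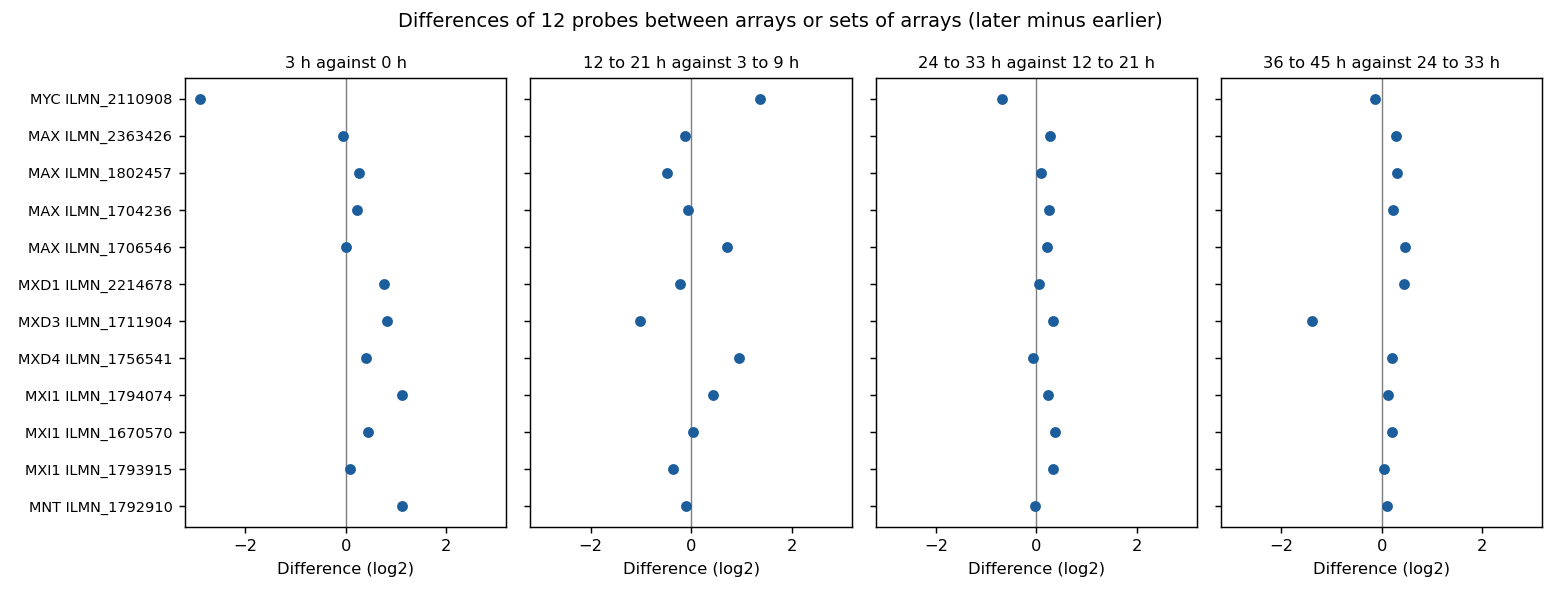
Difference in normalized log2 signal (horizontal axis, later minus earlier) of each of the 12 probes (vertical axis) in 4 comparisons. Points are differences of single arrays for 3 h against 0 h and of set means otherwise. MYC lay at -2.90 and then 1.37, MNT at 1.13 at 3 h, and MXD3 at -1.38 in the last comparison, while the points of MXI1 ILMN_1794074 and ILMN_1670570 in the first panel are against values not detected at 0 h.

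Counts over the 12 probes were set beside those over all probes, and nothing is read from them since the genes were chosen on these courses. At 3 h against 0 h, the probes of MNT and MXI1 (ILMN_1794074) were higher by at least 2-fold and that of MYC was lower. Of all tested probes 0.67% were that much higher and 1.05% lower. Without background correction the differences of MNT and this MXI1 probe were 0.91 and 0.41, both under 2-fold. In the comparison of 12 to 21 h with 3 to 9 h, 4 of the 12 probes were higher without overlap (MYC, MXD4, MAX ILMN_1706546 and MXI1 ILMN_1794074) and 2 were lower (MXD3 and MAX ILMN_1802457). The shares over all tested probes were 15.9% and 15.4%. From 12 to 21 h to 24 to 33 h, 2 were higher (MAX ILMN_2363426 and MXI1 ILMN_1794074) and MYC was lower, beside 10% and 9.4%. From there to 36 to 45 h, MAX ILMN_1802457 was higher and MXD3 lower, beside 6.01% and 6.19%. Across the whole course the limma fit called 8 of the 12 time-dependent against 51.3% of all tested probes, with a rising linear trend for 7 against 26% and a falling one for 1, MXD3, against 21.7%. MYC was not among the 8.

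**Figure D3:**
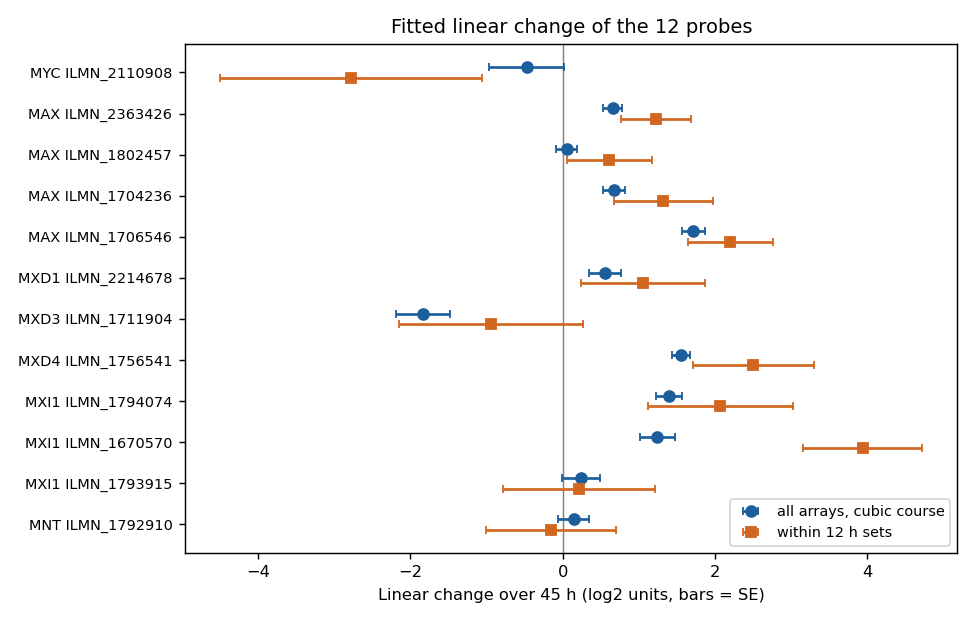
Fitted linear change over 45 h (horizontal axis, log2 units, bars are SE) of the 12 probes (vertical axis), from the cubic course over all arrays (circles) and from a straight line with the 12 h set as a factor (squares). The MAX probes ILMN_2363426, ILMN_1704236 and ILMN_1706546, MXD1, MXD4 and the first 2 MXI1 probes lay above 0 by more than their SE in both fits. Within sets the SE of MXD3, MNT and MXI1 ILMN_1793915 spanned 0.

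Within the 12 h sets most directions were kept, with wider errors. The linear change was 2.50 ± 0.79 (SE) for MXD4, 2.07 ± 0.95 for MXI1 ILMN_1794074, 3.94 ± 0.78 for MXI1 ILMN_1670570 and 2.20 ± 0.56 for MAX ILMN_1706546. These slopes are extrapolated to 45 h from stretches of 9 h. For MYC the value was -2.78 ± 1.72. For MNT it was -0.16 ± 0.86, where the course over all arrays gave 0.14.

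Over the 16 arrays the Pearson r between MXD4 and MXI1 ILMN_1794074 was 0.92, the highest of any pair of member probes, and it was 0.81 after removal of the mean of each 12 h set and 0.48 over the 15 steps between adjacent arrays. Without the 0 h array, where that MXI1 probe was not detected, it was 0.85, and MAX ILMN_1706546 with the same MXI1 probe had 0.87. The third MXI1 probe had an r of 0.15 with MXD4. MYC and MNT ran opposite ways, with an r of -0.64 over arrays and -0.80 over steps, as did MYC and MXD1 with -0.64 and -0.56. Much of this lies in the 0 h array, and over the other 15 arrays the r of MYC was -0.43 with MNT, -0.46 with MXD1 and 0.67 with MXD4, where it had been -0.06 over all 16. MAX ILMN_1706546 had an r of 0.83 with MXD4 and -0.75 with MXD3, but over steps these were -0.01 and -0.36, and within sets 0.44 and -0.24. These are descriptions over arrays that share time, scale and set, and successive points are not independent.

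Genes with courses most like that of MYC were sought over all 13107 other genes, by Pearson r over the 16 arrays. The 5 with the highest r were SPRY2 (0.96), a feedback inhibitor of receptor tyrosine kinase signalling, BAG3 (0.95), a co-chaperone of HSP70, TRIB1 (0.95), a pseudokinase, PHLDA1 (0.94), a pleckstrin homology domain protein, and CDC42EP2 (0.92), an effector of the GTPase CDC42. They were the only genes with an r of at least 0.9, and 22 had at least 0.8. Without the 0 h array the r of the 5 with MYC was between 0.88 and 0.94. Over the steps between adjacent arrays it was between 0.90 for CDC42EP2 and 0.96 for SPRY2.

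The likeness covers both the trough and the return. At 0, 3, 9, 12 and 45 h SPRY2 read 11.39, 8.67, 9.79, 10.86 and 10.11, and PHLDA1 read 12.30, 9.03, 9.88, 11.43 and 9.56. At 3 h all 5 were below 0 h, with differences of -0.79 for BAG3, -1.22 for TRIB1, -1.91 for CDC42EP2, -2.72 for SPRY2 and -3.27 for PHLDA1. The lowest r belonged to ARID5B (-0.83), a DNA-binding cofactor of a histone demethylase, CCNG2 (-0.78), an atypical cyclin of cells that stop dividing, and MFI2 (-0.77), now named MELTF, a transferrin family protein of the cell surface. These were higher at 3 h than at 0 h by 1.14, 1.63 and 0.92.

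**Figure D4:**
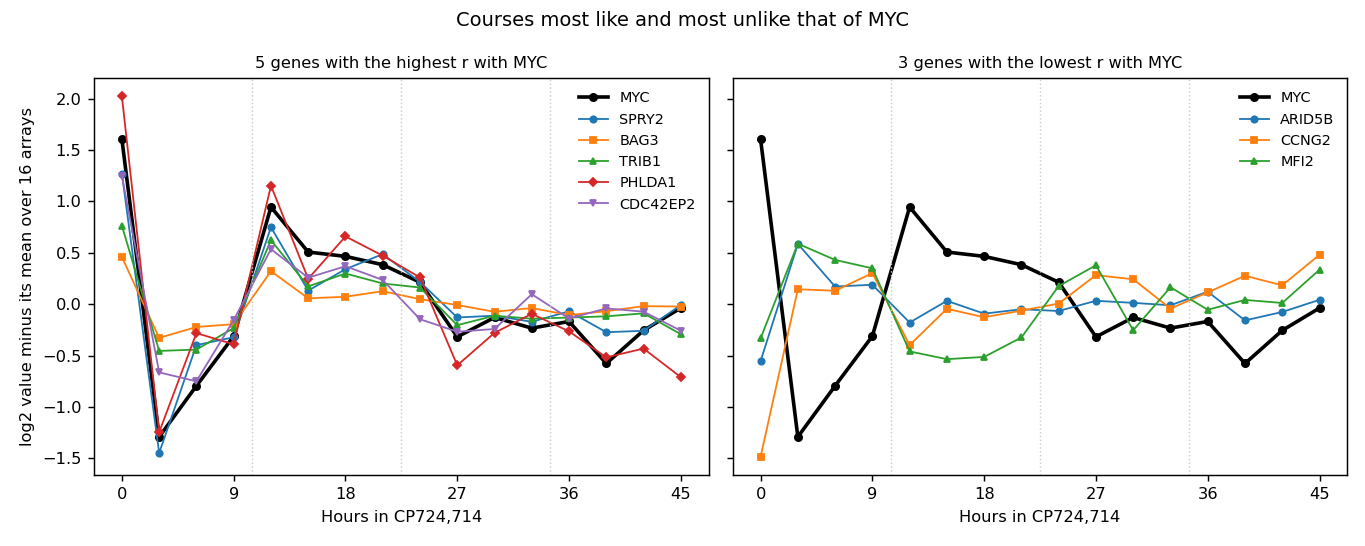
log2 signal minus the gene's mean over 16 arrays (vertical axis) against hours in CP724,714 (horizontal axis) for MYC (black) with the 5 genes of highest r (left) and the 3 of lowest r (right), 1 array per point. The genes on the left share the low value at 3 h and the high value at 12 h, and those on the right are lowest at 0 h, except MFI2, which was low both at 0 h and from 12 to 21 h.

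The wider family of MYC and MAX relatives was tested with limma over all 16110 probes, with p-values adjusted by the Benjamini-Hochberg method. In this and the lists below each gene was read by its brightest tested probe. Of 6 genes on the array, 4 were tested. MLX, the dimer partner of the glucose-sensing factors MLXIP and MLXIPL, rose by 0.66 ± 0.14 (SE) over 45 h (adjusted p = 0.000775), and MLXIPL fell by 1.33 ± 0.21 (adjusted p = 2.37e-05). MYCL1, a MYC paralog, had a linear change of 0.21 ± 0.29 (adjusted p = 0.586) and MGA, a large MAX-binding repressor, one of -0.01 ± 0.20 (adjusted p = 0.977). MYCN was detected on 2 arrays and MLXIP on 0, so neither was tested. Of 3 known targets of MLXIP and MLXIPL, TXNIP, a brake on glucose uptake, rose by 0.93 ± 0.11 (adjusted p = 6.69e-07). ARRDC4 had -0.13 ± 0.25 and PKLR -0.10 ± 0.23, and 0 of the 3 fell, also at an unadjusted p under 0.05. With the 12 h set as a factor none of these calls was kept, with adjusted p-values of 0.631 for MLX, 0.376 for MLXIPL and 0.215 for TXNIP. Over all 13108 tested genes 27% rose and 22% fell.

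Genes known as activated by MYC fell over the course. Of 34 tested of 36 listed, 26 (76.5%) fell and 0 rose at an adjusted p under 0.05 in limma, and 27 and 0 did at an unadjusted p under 0.05. Over all 13108 tested genes 22% fell and 27% rose at the adjusted p, and 3212 and 3975 did at the unadjusted p. The median linear change was -0.70, against 0.06 over all tested genes. The largest falls were those of CDC25A, NME1, ODC1 and MRTO4. CDC25A, a phosphatase that starts the cell cycle, fell by 2.40 ± 0.16 (SE, adjusted p = 4.8e-10). NME1, a nucleoside diphosphate kinase, fell by 2.32 ± 0.14 (adjusted p = 1.86e-10). ODC1, the first enzyme of polyamine synthesis, fell by 2.08 ± 0.15 (adjusted p = 1.5e-09), and the ribosome assembly factor MRTO4 fell by 1.37 ± 0.17 (adjusted p = 1.6e-06). The 8 that did not pass had linear changes between -0.61 (HNRNPA1) and 0.03 (POLR1B).

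Their median did not share the trough and return of MYC. Relative to each gene's mean over the arrays, the median of the 34 was 0.61, 0.52, 0.20 and 0.03 from 0 to 9 h. It stood at 0.09 at 12 h, where MYC was 1.26 above its 9 h level, and at -0.29 at 45 h. At 3 h 25 of the 34 were lower than at 0 h, with a median difference of -0.06, and at 9 h 32 were lower, with a median of -0.61. Over all 13108 tested genes 6324 and 6236 were lower at these times, with medians of 0.01 and 0.02. From 9 to 12 h 14 of the 34 were lower, and the median difference was 0.05. Of all tested genes 6266 were lower in that step, with a median of 0.02. Among the 34, those lower at 12 h than at 9 h included TFRC (14.22 to 13.29), NME1 (14.38 to 13.66) and CDC25A (8.54 to 7.95). Those higher included MRTO4 (10.48 to 11.04), PPAN (8.34 to 8.94), NOP16 (9.58 to 10.08) and RRP9 (7.03 to 8.09). Within the 12 h sets 30 of the 34 had a negative slope, but with the set as a factor 0 fell at an adjusted p under 0.05 and 10 at an unadjusted p. Over all 13108 tested genes 6301 had a negative slope within sets and 932 fell at the unadjusted p.

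**Figure D5:**
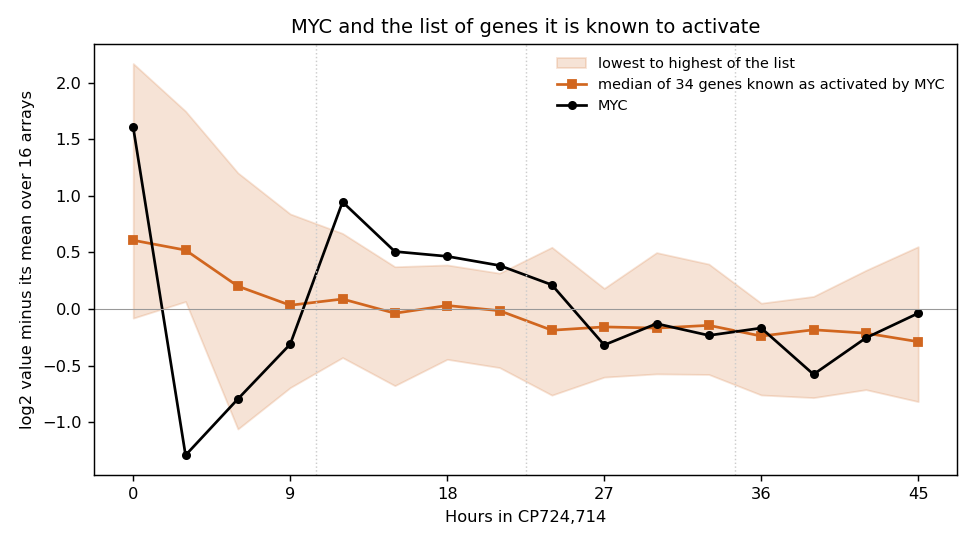
log2 signal minus the gene's mean over 16 arrays (vertical axis) against hours in CP724,714 (horizontal axis) for MYC (black) and for 34 genes known as activated by MYC (orange squares, median; shading, lowest to highest gene). The median was 0.61 at 0 h and 0.03 at 9 h, stood at 0.09 at 12 h, where MYC was high again, and ended at -0.29.

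Genes known as repressed by MYC were few on the array. Of 6 tested of 8 listed, 4 rose and 0 fell at an adjusted p under 0.05, and 5 and 0 did at an unadjusted p. At the adjusted p 27% of all tested genes rose and 22% fell. NDRG2, a differentiation-related gene, rose by 1.93 ± 0.14 (SE, adjusted p = 1.16e-09), its relative NDRG1 by 1.24 ± 0.15 (adjusted p = 1.35e-06), and the cyclin-dependent kinase inhibitors CDKN2B by 1.12 ± 0.10 (adjusted p = 2.34e-08) and CDKN1B by 0.36 ± 0.12 (adjusted p = 0.022). CDKN1A had a linear change of -0.16 ± 0.22 (adjusted p = 0.582) and GADD45A one of 0.37 ± 0.15 (adjusted p = 0.0547). At 3 h, where MYC was lowest, 4 of the 6 were lower than at 0 h, and the median difference of the 6 was -0.37. The 4 were CDKN1A (-0.77), GADD45A (-0.73), NDRG1 (-0.65) and CDKN2B (-0.09), while CDKN1B (0.645) and NDRG2 (0.27) were higher. At 45 h 2 of the 6 were lower than at 0 h. Over all 13108 tested genes 6324 were lower at 3 h than at 0 h, and 6029 at 45 h. With the set as a factor 1 of the 6 rose, and at an unadjusted p 2 rose and 1 fell, beside 1062 and 932 of all tested genes.

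The cofactors that MYC and its antagonists recruit went more often down than up. Of 18 tested, 7 fell and 1 rose, with a median linear change of -0.32, where 22% of all tested genes fell and 27% rose. The ATPase RUVBL1 fell by 1.14 ± 0.10 (SE, adjusted p = 1.22e-08) and its partner RUVBL2 fell by 0.93 ± 0.08 (adjusted p = 3.26e-08). TRRAP, the scaffold of MYC's acetyltransferase complexes, fell by 0.78 ± 0.14 (adjusted p = 0.000147). The histone chaperone RBBP4 had a falling linear term of -0.85 ± 0.19 (adjusted p = 0.00112), but read 8.93 at 0 h and 8.97 at 45 h, and its slope within sets was 1.32 ± 0.84. SAP18, a subunit of SIN3 complexes, rose by 1.09 ± 0.10 (adjusted p = 4.07e-08). The linear changes of the SIN3 and deacetylase genes themselves did not pass. They were 0.05 ± 0.09 for SIN3A, -0.39 ± 0.27 for SIN3B, 0.08 ± 0.10 for HDAC1 and -0.14 ± 0.07 for HDAC2. HDAC2 was nonetheless time-dependent in the limma F-test of the cubic course (adjusted p = 0.00111). It read 13.58 at 0 h, 13.17 at 12 h and 13.10 at 45 h. With the set as a factor 0 of the 18 passed, and at an unadjusted p 3 fell and 0 rose, beside 932 and 1062 of all 13108 tested genes.

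Genes that act on the stability of the MYC protein were mostly lower with time. Of 9 tested of 10 listed, 6 fell and 1 rose, with a median of -0.43, where 22% of all tested genes fell and 27% rose. AURKA, a mitotic kinase that shields MYC proteins, fell by 2.22 ± 0.21 (SE, adjusted p = 4.54e-08), and SKP2, an F-box protein that ubiquitinates MYC, fell by 0.92 ± 0.14 (adjusted p = 1.38e-05). The ubiquitin ligase TRIM32 fell by 0.69 ± 0.10 (adjusted p = 1.05e-05) and the kinase PIM1 fell by 0.61 ± 0.24 (adjusted p = 0.0449). FBXW7, the F-box protein that targets phosphorylated MYC for destruction, rose by 0.47 ± 0.14 (adjusted p = 0.00786). With the set as a factor 1 of the 9 fell and 0 rose. At an unadjusted p 2 and 0 did, beside 932 and 1062 of all 13108 tested genes. MYC protein was not measured here, and the transcript values say nothing of its amount.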

How the data were processed

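Total RNA of 16 SUM-225 cultures, 1 per time point, was hybridised to Illumina bead arrays. Signal intensity, neither background-subtracted nor normalized, and a detection p-value were deposited by the authors per probe and array. The study's methods name the Illumina human Ref8v2 array and quantile normalization for time courses of other lines. Neither the array version of these samples, nor scanner software or genome build, is given in the sources used here. All columns of per-sample values were used, and 0 were left out.

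Background was corrected and values quantile normalized and log2 transformed with neqc of limma 3.58.1 in R 4.3.3 (offset 16, negative controls inferred from the detection p-values). The 16110 probes tested had detection p-values under 0.05 in 3 or more arrays. A cubic polynomial in hours was fitted with lmFit and eBayes (trend on), and the linear change over 45 h is its first-order coefficient. Tests were two-sided, with Benjamini-Hochberg adjustment over all tested probes at 0.05. With no replicates, errors and p-values measure the spread about the fitted course, which may include true change.

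The members and all gene lists were chosen with earlier results of these data known, so no p-value of a member is given, counts of member probes called by the fit are description only, and list counts are no independent evidence. Named were all member probes, the 5 highest and 3 lowest Pearson r with MYC, in each list up to 4 of the largest rises and falls past the threshold, and every gene of the extended network and of the MLXIP and MLXIPL targets. HNRNPA1, POLR1B, PPAN, NOP16, RRP9, SHMT2, TFRC, CDKN1A, GADD45A, SIN3A, SIN3B, HDAC1 and HDAC2 are outside this rule and were picked with their values in view. Promoters were read from a RefSeq table with Python 3.11.15, and figures drawn with matplotlib 3.10.9. Alternatives were cyclic loess, median scaling, an offset of 50, no background correction, a filter of detection on all 16 arrays or none, the 12 h set as a factor, and each array left out in turn. For the courses like that of MYC, adjacent differences and values centred by set were also used.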

Additional observations from a re-analysis of the deposited data

How the results depend on the processing

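Of 252 member values recomputed under another setting, 224 moved by less than the spread within sets and 28 moved by more. Of the values larger than that spread, 0 changed sign. Some smaller values did. The linear change of MNT went from 0.14 to -0.16 with the 12 h set as a factor. That of MAX ILMN_1802457 went from 0.05 to -0.03 under cyclic loess. Without background correction the MYC difference of 3 h from 0 h was -2.333, that of 12 to 21 h from 3 to 9 h was 1.0738, and the MXD3 difference of 36 to 45 h from 24 to 33 h was -0.9104. In a fit with a straight line in hours plus a factor for the 12 h set, limma called 68 probes rising and 77 falling, against 4190 and 3495 in the cubic course. In the same fit 0 genes rose and 0 fell in the extended network and among the cofactors, 0 rose and 1 fell for MYC turnover, 0 of the genes activated by MYC fell, 1 of those repressed rose and 0 of the MLXIP and MLXIPL targets rose. At an unadjusted p those zeros stood at 0 and 0 for the extended network, 0 rising and 3 falling cofactors, and 0 rising turnover genes. There were 10 falling activated genes and 1 rising target. Over all 13108 tested genes 1062 rose and 932 fell at an unadjusted p in this fit. The cause of the loss of calls was not tested. Of the 5 genes most like MYC, 3 were among the 5 both over adjacent differences and over values centred by set.

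Leaving out each array in turn gave 936 member values, of which 920 stayed within that spread, 15 moved and 1 larger than the spread changed sign. That last was the linear change of MYC, which ranged from -0.9996 without the 3 h array to 0.1145 without the 0 h array. The 936 include differences between arrays that were not left out, which could change only through the renewed normalization. The 920 therefore overstate how stable the values were. Over these fits the MYC difference of 12 to 21 h from 3 to 9 h was 1.13 to 1.62 and that of 24 to 33 h from 12 to 21 h was -0.80 to -0.57. The difference of 3 h from 0 h needs both of its arrays, so it was recomputed only with another array left out. For MYC it then ran from -2.9008 to -2.895. How it depends on its own arrays was not tested in this way. The MXD4 difference of 12 to 21 h from 3 to 9 h was 0.66 (without 3 h) to 1.16, that of MXD3 -1.22 to -0.83, and the MXD3 difference of 36 to 45 h from 24 to 33 h -1.51 to -1.24. Activated genes falling numbered 24 to 27, repressed genes rising 4 to 5, cofactors falling 7 to 8, turnover genes falling 5 to 6 and rising 1 to 2 (2 without 30 h). The 5 genes most like MYC kept 3 to 5, with 3 without the 0 h array. No paired analysis was possible because there was 1 array per time point. The number of arrays limits the precision, and the MXI1 probes lay close to background at 0 h.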
